A study of Homo sapiens with 14 samples.

Results

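The interferon response genes of MM1S, an established line from human multiple myeloma, were followed across 7 treatment groups of 2 arrays each. The set holds 54 genes, chosen by name for their known place in the interferon system: the receptors, the interferon regulatory factors, the sensors of viral RNA and the interferon-stimulated genes. Of these, 53 had a probe set that carried only their own symbol, and 32 passed a filter on low values (a log2 level of at least 4 in at least 2 of the 14 arrays) out of 9301 genes that passed it in all. IFI30 had no such probe set and was not analysed here. Each gene was read from its probe set with the highest mean.

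The cells were grown in RPMI-1640 with 10% serum and, per the labels, treated cells were lysed after 6 h of treatment. No time is recorded here for the untreated cells. The groups were untreated cells, cells given 1 nM salmeterol, cells given 12.5 nM CGS-21680, cells given 25 nM dexamethasone (low dexamethasone), cells given 2 µM dexamethasone (high dexamethasone), and cells given either agonist together with 25 nM dexamethasone. Salmeterol, an asthma drug, acts on beta-2 adrenergic receptors. CGS-21680 acts on adenosine 2A receptors, and signalling from both kinds of receptor raises cyclic AMP. Dexamethasone, a synthetic glucocorticoid, belongs to a class of drug used against myeloma. No group received interferon. All groups come from a single line. The replicates are labelled biological, with nothing on separate cultures, so the spread behind each p-value is that between these arrays and can hold technical variation.

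Interferons bind paired receptor chains at the cell surface (IFNAR1 with IFNAR2 for type I interferons, IFNGR1 with IFNGR2 for interferon gamma). The receptors activate Janus kinases and STAT proteins. STAT complexes with IRF9 bind interferon-stimulated response elements, and STAT dimers bind gamma-activated sites, in the promoters of genes whose products degrade viral RNA, block translation or present antigen. Interferon regulatory factors such as IRF1 and IRF2 bind the same elements, IRF1 mostly as an activator and IRF2 mostly as a repressor. Plasma cells and myeloma cells keep part of this programme in use for antigen presentation.

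Promoter sequences are shown for 4 members that changed and 2 that lay near the lowest measurable signal, to show the elements through which interferon is known to act. The sequences are those of RefSeq on GRCh38.p14, cover 250 bases upstream of the listed transcript start, and run 5′ to 3′ in the direction of the gene. Capitals mark matches, on either strand, to the interferon-stimulated response element, searched as a GAAA repeated after 2 free bases, or to the gamma-activated site searched as TTCNNNGAA.
ISG20, chr15:88638766-88639015, plus strand: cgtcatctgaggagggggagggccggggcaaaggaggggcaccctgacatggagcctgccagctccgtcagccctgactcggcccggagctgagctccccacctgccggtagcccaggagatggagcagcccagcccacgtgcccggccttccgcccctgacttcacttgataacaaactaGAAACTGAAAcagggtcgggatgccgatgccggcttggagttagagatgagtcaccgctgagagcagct
TAP1, chr6:32853705-32853954, minus strand: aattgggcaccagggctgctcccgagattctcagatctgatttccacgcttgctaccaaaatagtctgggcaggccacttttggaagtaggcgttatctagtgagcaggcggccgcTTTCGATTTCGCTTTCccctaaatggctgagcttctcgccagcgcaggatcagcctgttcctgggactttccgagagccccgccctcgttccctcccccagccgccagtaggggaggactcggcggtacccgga
GBP1, chr1:89065209-89065458, minus strand: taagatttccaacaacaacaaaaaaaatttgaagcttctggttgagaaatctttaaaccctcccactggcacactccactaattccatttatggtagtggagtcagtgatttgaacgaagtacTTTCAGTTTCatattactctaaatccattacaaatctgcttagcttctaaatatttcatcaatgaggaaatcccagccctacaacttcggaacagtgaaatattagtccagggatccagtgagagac
IRF1, chr5:132490774-132491023, minus strand: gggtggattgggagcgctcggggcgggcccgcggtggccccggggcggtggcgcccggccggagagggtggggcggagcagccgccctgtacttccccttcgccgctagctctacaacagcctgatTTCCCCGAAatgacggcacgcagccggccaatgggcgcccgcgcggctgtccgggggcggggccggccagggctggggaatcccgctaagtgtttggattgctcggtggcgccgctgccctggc
IFIT1, chr10:89392373-89392622, plus strand: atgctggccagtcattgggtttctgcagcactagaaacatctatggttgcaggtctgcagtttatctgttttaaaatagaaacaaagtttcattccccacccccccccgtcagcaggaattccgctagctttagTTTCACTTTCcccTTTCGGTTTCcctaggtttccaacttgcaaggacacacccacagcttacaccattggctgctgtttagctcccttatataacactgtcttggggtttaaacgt
IFI6, chr1:27672193-27672442, minus strand: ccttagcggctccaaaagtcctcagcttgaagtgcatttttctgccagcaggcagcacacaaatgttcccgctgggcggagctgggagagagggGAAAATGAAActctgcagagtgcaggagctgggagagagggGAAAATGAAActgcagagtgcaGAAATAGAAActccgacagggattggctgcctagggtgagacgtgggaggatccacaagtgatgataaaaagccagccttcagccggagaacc
ISG20 held 1 copy of the response element, TAP1 held 2 overlapping copies, and GBP1 held 1. IRF1 held a gamma-activated site. IFIT1 held 2 copies of the response element and IFI6 held 3. A promoter was listed for 40 of the 54 genes, and the first was used for the 12 genes with more than 1. The response element was present in 20 of these 40 promoters and in 3.02% of all 35116 listed promoters. The gamma-activated site was present in 8 of the 40 and in 6.57% of all promoters. The cyclic AMP response element TGACGTCA was in 0 of the 40 and in 1.65% of all, and the glucocorticoid receptor motif AGAACA was in 1 of the 40 (IFNAR1) and in 12.4% of all. Among members with a listed promoter, the response element was present in 4 of the 10 that changed in any comparison, in 7 of the 16 tested members that did not, and in 9 of the 13 that lay below the filter. A match is a description of the letters, not evidence of binding.

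Array medians over the 9301 genes lay between log2 7.44 and 7.63, and the arrays of a group correlated across genes at 0.987 to 0.992. All 9 markers of plasma cells and myeloma passed the filter, and 7 of them changed in at least 1 comparison (34.1% of all genes did). Salmeterol with low dexamethasone lowered 4 of the 9 against untreated cells and raised 0 (44.4%, against 24.6% of all genes): IRF4 fell by 3.18, SLAMF7 by 1.99, TNFRSF17 by 1.57 and SDC1 by 1.27. CGS-21680 with low dexamethasone lowered the same 4 and raised 0 (44.4%, against 15.8%). Salmeterol alone lowered 3 and raised 1 (44.4%, against 5.97%). IRF4 fell in every treatment group. The falls with salmeterol and low dexamethasone came in the same arrays as the members' calls for that combination, and their part in those calls was not tested. None of 4 T cell markers and none of 4 myeloid markers passed, with highest values of 3.63 and 2.41. Of the stromal and endothelial markers, 2 of 5 passed (COL1A1 and PECAM1, median log2 7.22 and 5.56), as did HBB (7.45), and these 3 changed in none of the 15 comparisons. FKBP5, a direct glucocorticoid target, rose by 3.98 to 4.55 in the 4 groups with dexamethasone against untreated cells, and PDE4B, a cyclic AMP target, rose by 2.35 to 3.70 in the 4 groups with an agonist. RGS2, also checked, rose by 1.06 to 2.23 in these 4 groups, and by 0.49 with high dexamethasone (limma, adjusted p = 0.0279). TSC22D3, also checked, rose by 6.03 to 8.12 in the 4 groups with dexamethasone, and by 1.00 with salmeterol alone (0.0449). CREM, also checked, rose by 3.01 with salmeterol and by 2.59 with salmeterol and low dexamethasone. For CREM, CGS-21680 alone gave 0.89 and its combination 1.07 against untreated cells, and neither passed (limma, adjusted p = 0.522 and 0.0767).

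In MM1S cells 32 of the interferon genes passed the filter and 21 lay below it, and passing it does not make a gene well measured. The 32 tested members had a median log2 level of 7.94, against 7.54 for all genes tested. B2M, the light chain of class I molecules, was the highest, at 15.06 to 15.45 across the 14 arrays. The lowest of those tested was PARP14, with a mean of 3.73. Levels here are array signals, which also depend on the probes, so they are not ranked between genes beyond these ends. All 4 receptors, all 5 regulatory factors and all 4 antigen presentation genes passed the filter, whereas 0 of 4 IFIT genes, whose products bind viral RNA, and 0 of 3 IFITM genes, whose products block viral entry, did.

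The 21 members below the filter were RIGI, DHX58, IFIT1, IFIT2, IFIT3, IFIT5, IFITM1, IFITM2, IFITM3, OASL, MX2, GBP2, GBP4, USP18, PARP9, IFI6, IFI27, IFI44, IFI44L, XAF1 and TRIM22. They make up 39.6% of the members with a probe set, against 53.0% of all genes. As the filter sets, none has 2 arrays at log2 4 or more. Their 33 probe sets never exceeded log2 4.22, and 8 of them were at the deposited floor of 2.29 on every array. In 17 of the 21 members every probe set stayed under log2 3 on all 14 arrays, treated or not. IFIT1 was at 2.35 on untreated array 1 and at the floor on the other 13 arrays. IFI27, IFI44, USP18 and TRIM22 stayed at the floor on all arrays in their highest probe set. MX2 reached 3.26 on salmeterol array 1 and 2.80 on array 2 of salmeterol with low dexamethasone, and was at the floor elsewhere. A small change near or under the floor could not be seen. The filter fell between IFIT5, just outside with 1 array at or above 4 (4.22, low dexamethasone array 2), and PARP14, just inside with 2.

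**Figure D1:**
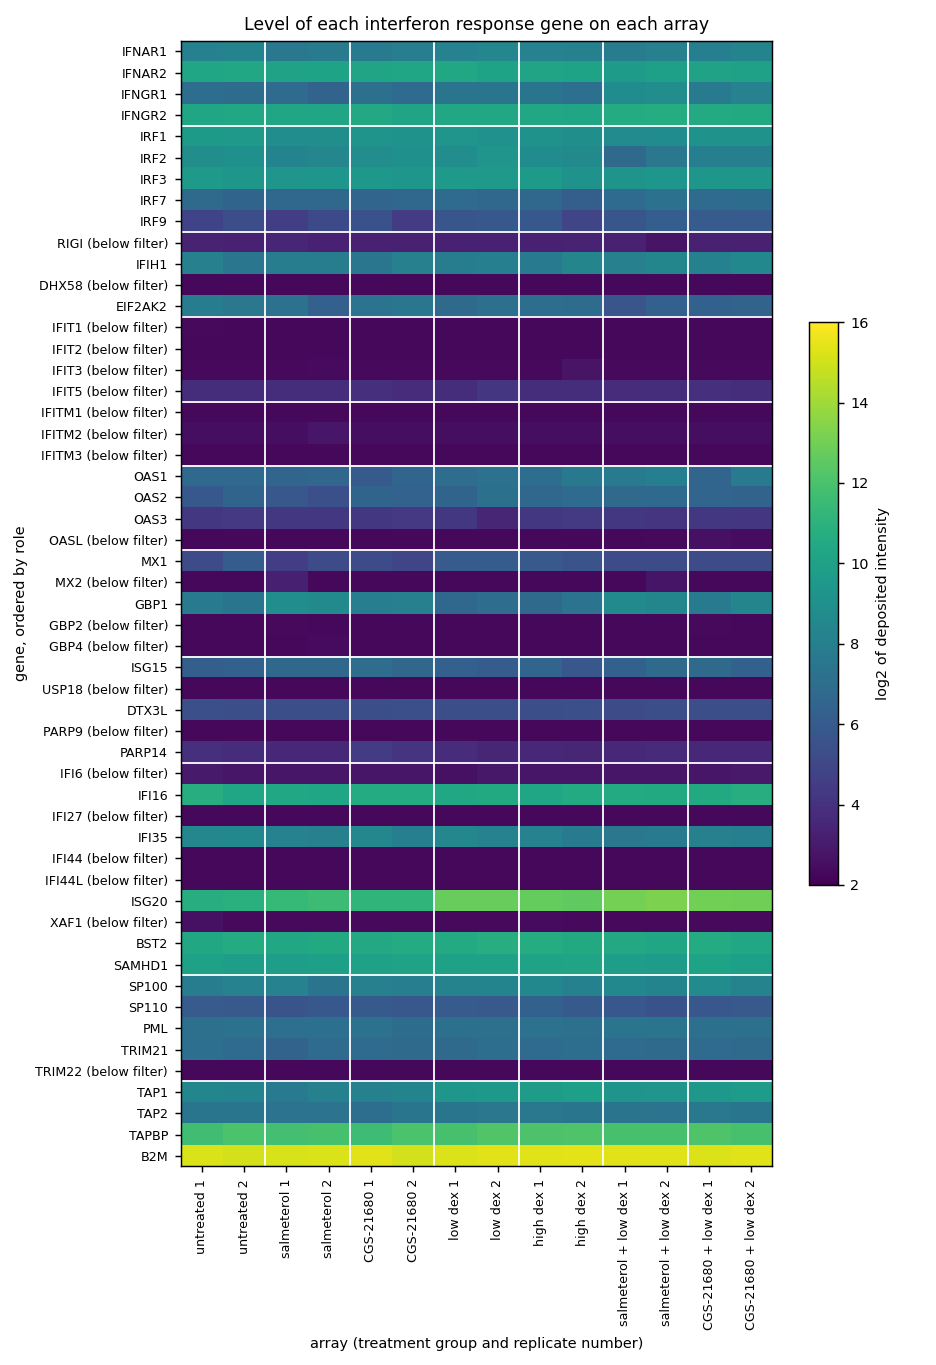
Log2 level of the 53 interferon response genes with a probe set of their own (rows, grouped by role) on each of the 14 arrays (columns, grouped by treatment); colour gives the log2 level from the floor of 2.29 upward. The 21 genes marked as below the filter are dark rows, by the rule that set them apart, while B2M is bright on all arrays.

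Differences were tested with limma in 1 model of 7 group means, with Benjamini-Hochberg adjustment over the 9301 genes, and a member changed where its adjusted p was under 0.05. Each group's 2 arrays can never give an exact permutation p under 0.333, so the tests lean on the spread shared across genes. By the F test over the 7 groups, 9 of 32 members changed, or 28.1%, against 25.9% of all genes. Over the 15 comparisons, 13 members changed at least once, with 48 calls in all, and 19 changed in none. These 13 are 40.6% of the 32, against 34.1% of all genes called in at least 1 comparison. PARP14 is among them and among the 9, and it passed the filter through 1 group alone; without it 12 of 31 members changed at least once, with 46 calls, and 8 passed the F test (25.8%). With a replicate block 12 of 32 passed the F test (37.5%, against 28.3% of all genes), and 12 did with the mean of a gene's probe sets (37.5%, against 26.7%). Group means spanned at least 1 log2 unit in 10 members (31.2%, against 19.2% of all genes) and under 0.5 in 13. Whether members and other genes differ in these shares was not tested.

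Of single treatments against untreated cells, salmeterol raised 2 members and lowered 1 (9.38% of the 32, against 5.97% of all genes), CGS-21680 changed 0 (against 0.656%), low dexamethasone raised 2 (6.25%, against 4.66%) and high dexamethasone raised 2 and lowered 1 (9.38%, against 8.58%). The combinations did more. Salmeterol with low dexamethasone raised 5 and lowered 5 against untreated cells (31.2%, against 24.6%), and CGS-21680 with low dexamethasone raised 3 and lowered 3 (18.8%, against 15.8%). These 6 comparisons share the untreated arrays. Added to low dexamethasone, salmeterol raised 3 and lowered 5 members (25.0%, against 14.4%), and CGS-21680 raised 1 and lowered 1 (6.25%, against 3.4%). Low dexamethasone added to salmeterol raised 6 and lowered 1 (21.9%, against 16.3%), and added to CGS-21680 raised 3 and lowered 2, PARP14 among the latter (15.6%, against 13.8%). The 0 calls for CGS-21680 alone came with 5 members at an unadjusted p under 0.05, or 15.6%, against 8.43% of all genes. PARP14 is among these 5, and it passed the filter only through the CGS-21680 arrays, so nothing is read from it. With salmeterol alone 25 of the 32 members lay below their untreated level and 7 above, called or not (78.1% below, against 60.5% of all genes), and the median difference was -0.19, where that of all genes was -0.06. The median difference of the members was -0.02 with CGS-21680, 0.09 with low dexamethasone, 0.04 with high dexamethasone, -0.02 with salmeterol and low dexamethasone and 0.10 with CGS-21680 and low dexamethasone, where that of all genes lay between 0.00 and 0.01.

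**Figure D2:**
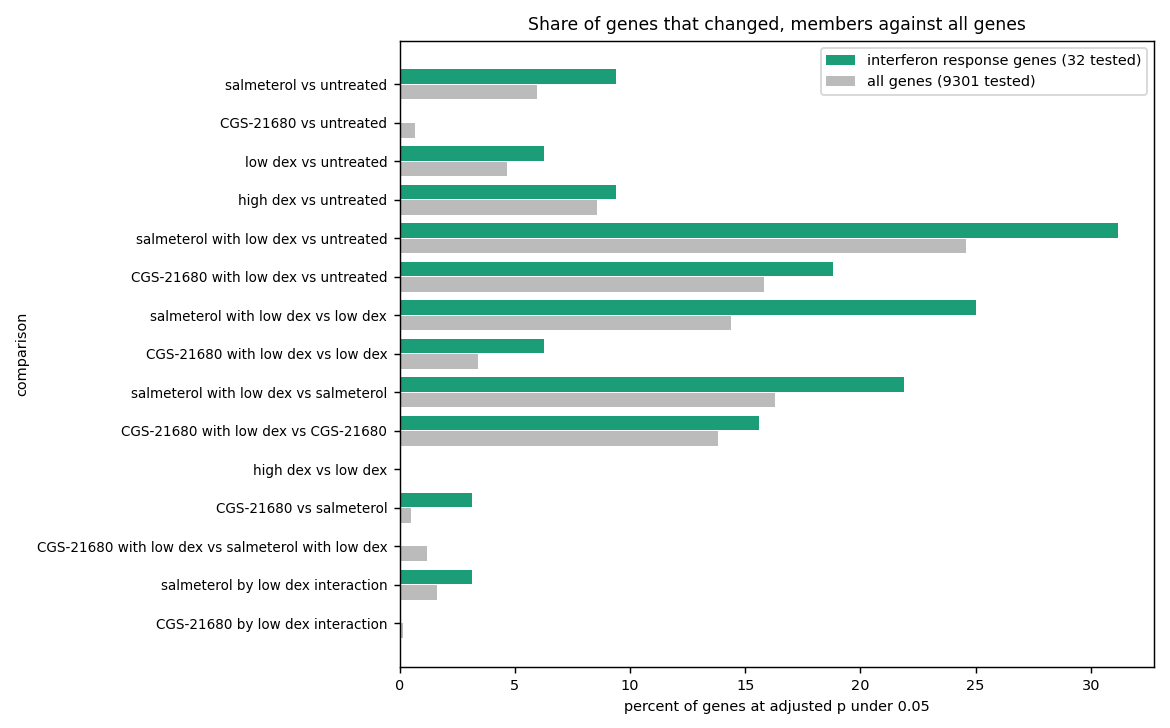
Percent of the 32 tested interferon response genes and of all 9301 genes that passed an adjusted p of 0.05, for each comparison. Against untreated cells the share of members runs from 0% with CGS-21680 to 31.2% with salmeterol and low dexamethasone, and that of all genes from 0.656% to 24.6%.

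Alternatives to this model were further quantile normalization, no filter, the mean of a gene's probe sets, a replicate block, and leaving out each of the 14 arrays. Of the 48 calls, 23 passed in all 18 alternatives, and none turned its direction. The calls that did not pass are named with the gene, and a call with no such remark passed in all 18.

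Of the receptors, IFNGR1, the ligand-binding chain of the interferon gamma receptor, rose with both combinations. Its log2 levels were 7.06 and 6.93 in untreated cells, 6.90 and 6.46 with salmeterol, 7.15 and 6.87 with CGS-21680, 7.41 and 7.45 with low dexamethasone, 7.42 and 7.12 with high dexamethasone, 8.83 and 8.87 with salmeterol and low dexamethasone, and 7.75 and 8.23 with CGS-21680 and low dexamethasone. Both combinations lay above every other array, and the salmeterol combination lay above the CGS-21680 combination. With salmeterol and low dexamethasone it rose by 1.86 ± 0.20 (standard error; 3.62-fold, adjusted p = 0.000159, limma) against untreated cells, by 1.42 ± 0.20 against low dexamethasone and by 2.17 ± 0.20 against salmeterol. With CGS-21680 and low dexamethasone it rose by 0.99 ± 0.20 (adjusted p = 0.00836) against untreated cells and by 0.97 ± 0.20 (adjusted p = 0.0109) against CGS-21680. Against untreated cells this call was lost without untreated array 2 (adjusted p = 0.0574) or without array 2 of the combination (0.0556), and against CGS-21680 without array 2 of CGS-21680 (0.0707) or array 2 of the combination (0.0665).

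The response of IFNGR1 to salmeterol also differed with and without dexamethasone, the single such call among 32 members (3.12%, against 1.61% of all genes) in the model without a block. In some alternatives IRF2 passed as well. Salmeterol alone gave -0.31 ± 0.20 (95% interval -0.75 to 0.13), while salmeterol on top of low dexamethasone gave 1.42. The interaction was 1.74 ± 0.28 (limma, adjusted p = 0.014, 95% interval 1.11 to 2.36). It lost its call in 7 of the 14 fits without 1 array, those without either array of untreated cells, low dexamethasone or the combination, or without salmeterol array 2, with adjusted p from 0.0501 to 0.0742 and a value between 1.52 and 1.95 in all 14. For CGS-21680 the interaction was 0.54 ± 0.28 and did not pass (adjusted p = 0.871). No member passed limma's test of that interaction (0 of 32, against 0.151% of all genes), and 4 members, or 12.5%, had an unadjusted p under 0.05, against 6.35% of all genes. PARP14 is among these 4, and it passed the filter only through the CGS-21680 arrays, so nothing is read from it. A further probe set of IFNGR1 gave 1.64 and 1.00 for the combinations against untreated cells.

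IFNAR2, a chain of the type I receptor, fell with salmeterol and low dexamethasone. Its levels were 10.28 and 10.36 in untreated cells, 10.33 and 10.13 with low dexamethasone, and 9.75 and 9.93 with salmeterol and low dexamethasone. The other 8 arrays lay between 10.04 and 10.23, so by this probe set the salmeterol combination was below all others. It fell by 0.48 ± 0.10 against untreated cells (adjusted p = 0.00744) and by 0.39 ± 0.10 against low dexamethasone (adjusted p = 0.0306). Without array 1 of the combination the adjusted p was 0.058 and 0.183. The second call was also lost without low dexamethasone array 1 (0.176) and with further quantile normalization (0.0576). IFNGR2, the signalling chain of the interferon gamma receptor, rose by 0.38 ± 0.11 when low dexamethasone was added to salmeterol (10.24 and 10.27 against 10.60 and 10.66, adjusted p = 0.0383), which was lost without either array of salmeterol, low dexamethasone or the combination (0.0548 to 0.158) and with quantile normalization (0.161). IFNAR1, the other type I chain, changed in none of the 15 comparisons of the model without a block. It was nearest to a change with salmeterol, at -0.51 (7.59 and 7.84 against 8.14 and 8.32 in untreated cells, adjusted p = 0.0934). With the replicate block it passed there (adjusted p = 0.0205) and for salmeterol added to low dexamethasone (-0.35, 0.045).

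Of the regulatory factors, IRF2, which mostly represses interferon targets, fell with both combinations. Its levels were 8.92 and 9.03 in untreated cells, 8.29 and 8.50 with salmeterol, 8.87 and 9.03 with CGS-21680, 8.88 and 9.30 with low dexamethasone, 8.80 and 8.70 with high dexamethasone, 6.84 and 7.54 with salmeterol and low dexamethasone, and 8.02 and 8.04 with CGS-21680 and low dexamethasone. All 4 combination arrays lay below the other 10. With salmeterol and low dexamethasone IRF2 fell by 1.79 ± 0.22 (to 0.289 of the untreated level, adjusted p = 0.000323), by 1.91 ± 0.22 against low dexamethasone and by 1.21 ± 0.22 against salmeterol. With CGS-21680 and low dexamethasone it fell by 0.95 ± 0.22 against untreated cells (adjusted p = 0.0165), by 1.06 ± 0.22 against low dexamethasone (0.0335) and by 0.92 ± 0.22 against CGS-21680 (0.0213).

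The IRF2 calls for the CGS-21680 combination were less firm than those for the salmeterol combination. The call against untreated cells was lost without either array of untreated cells or of the combination (adjusted p 0.0639 to 0.0863) and with no filter (0.0633). The call against CGS-21680 was lost without any of its 4 arrays (0.0595 to 0.106) and with no filter (0.0798). The call against low dexamethasone was lost in 10 of the 14 fits, all but those without an array of high dexamethasone or of the salmeterol combination (0.0516 to 0.189), and with no filter (0.111). The interaction of salmeterol with dexamethasone was -1.32 ± 0.30 for IRF2 and did not pass (adjusted p = 0.0808). It did pass with a replicate block (-1.32, adjusted p = 0.0412), with further quantile normalization (-1.41, 0.0325) and without array 2 of the combination (-1.67, 0.0166).

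IRF1, an activator of class I and antiviral genes, was highest in untreated cells. Its levels were 9.61 and 9.50 there, 8.87 and 8.94 with salmeterol, 9.27 and 9.12 with CGS-21680, 9.29 and 9.07 with low dexamethasone, 9.11 and 8.96 with high dexamethasone, 8.75 and 8.80 with salmeterol and low dexamethasone, and 9.14 and 9.19 with CGS-21680 and low dexamethasone. No treated array reached the untreated ones. IRF1 fell by 0.78 ± 0.11 with salmeterol and low dexamethasone (to 0.581, adjusted p = 0.00065), by 0.65 ± 0.11 with salmeterol (0.00863), by 0.52 ± 0.11 with high dexamethasone (0.0176) and by 0.39 ± 0.11 with CGS-21680 and low dexamethasone (0.0371). Salmeterol added to low dexamethasone lowered it by 0.41 ± 0.11 (0.0313). The differences with CGS-21680 and with low dexamethasone alone were -0.36 and -0.37 and did not pass (0.293 and 0.0889). All 6 of these differences from untreated cells share its 2 untreated arrays, of which array 1 was the higher.

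Without untreated array 1 the adjusted p of IRF1 was 0.0642 for salmeterol, 0.11 for high dexamethasone and 0.18 for CGS-21680 with low dexamethasone. The high dexamethasone call was also lost without untreated array 2 (0.0538) or high dexamethasone array 2 (0.102). The call for CGS-21680 with low dexamethasone was lost in 8 of the 14 fits, those without either array of untreated cells, salmeterol or a combination (0.0501 to 0.18), with quantile normalization (0.0733) and with no filter (0.0528). Salmeterol added to low dexamethasone was not called without low dexamethasone array 1 (0.182), without either array of the combination (0.143 and 0.0876), with quantile normalization (0.078) or with the mean of its probe sets (0.0528). The further probe set of IRF1 gave -0.87 with salmeterol and low dexamethasone and -0.54 with salmeterol.

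IRF3, IRF7 and IRF9 changed in none of the comparisons. IRF3, which carries the signal of the RNA sensors, stayed between 9.11 and 9.65. IRF7, the amplifier of type I interferon production, stayed between 6.24 and 7.22. IRF9, the DNA-binding partner of the STATs, ranged from 4.43 to 6.16, and its largest difference from untreated cells was 0.91 with CGS-21680 and low dexamethasone. Its smallest adjusted p was 0.0995, for low dexamethasone added to salmeterol (1.10).

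Among the sensors of viral RNA, EIF2AK2, the kinase PKR that halts translation on double-stranded RNA, fell with both combinations. Its levels were 7.88 and 7.54 in untreated cells, 7.27 and 6.31 with salmeterol, 7.32 and 7.48 with CGS-21680, 6.86 and 7.18 with low dexamethasone, 7.06 and 6.96 with high dexamethasone, 5.67 and 6.30 with salmeterol and low dexamethasone, and 6.37 and 6.47 with CGS-21680 and low dexamethasone. Untreated arrays were the highest, and salmeterol array 2 fell among the combination arrays. EIF2AK2 fell by 1.73 ± 0.30 with salmeterol and low dexamethasone (to 0.302, adjusted p = 0.00268) and by 1.29 ± 0.30 with CGS-21680 and low dexamethasone (0.0184). The second call was lost without untreated array 1 (0.117), without either array of the combination (0.0809 and 0.0661) and with no filter (0.0776).

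Salmeterol added to low dexamethasone lowered EIF2AK2 by 1.03 ± 0.30, just past the threshold (adjusted p = 0.0491). That call was lost in 11 of the 14 fits without 1 array (0.0651 to 0.281), holding only without salmeterol array 1, salmeterol array 2 or array 2 of the combination, and also with no filter (0.167) or when its probe sets were averaged (0.0612). A further probe set of EIF2AK2 moved less, at -0.43 with salmeterol and low dexamethasone and -0.36 with CGS-21680 and low dexamethasone. IFIH1, the sensor MDA5, stayed between 7.48 and 8.51 and changed in no comparison.

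Of the OAS family, which makes the 2′-5′ oligoadenylates that activate RNase L, 2 of 3 tested members rose with low dexamethasone added to salmeterol. OAS1 was at 6.80 and 6.76 in untreated cells, 6.57 and 6.62 with salmeterol, 5.96 and 6.57 with CGS-21680, 7.03 and 7.25 with low dexamethasone, 7.08 and 7.66 with high dexamethasone, 7.77 and 8.04 with salmeterol and low dexamethasone, and 6.55 and 7.72 with CGS-21680 and low dexamethasone. The arrays of the CGS-21680 combination lay far apart, and those of the salmeterol combination above all others. OAS1 rose by 1.13 ± 0.35 with salmeterol and low dexamethasone (2.18-fold, adjusted p = 0.0446) and by 1.31 ± 0.35 when low dexamethasone was added to salmeterol (0.0329). Each call was lost in 8 of the 14 fits, those without an array of untreated cells, salmeterol, low dexamethasone or the combination (0.0641 to 0.186 and 0.0503 to 0.158), and with no filter (0.156 and 0.122). A further probe set gave 1.42 and 1.46.

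OAS2 rose by 1.21 ± 0.25 when low dexamethasone was added to salmeterol (5.80 and 5.41 against 6.86 and 6.77, adjusted p = 0.00995). It was at 5.88 and 6.51 in untreated cells, from which the combination differed by 0.62 ± 0.25 (adjusted p = 0.106). The mean of the combination, 6.81, was close to that of low dexamethasone alone (6.85) and of high dexamethasone alone (6.80). The call was lost without salmeterol array 2 (0.0731), without array 1 of the combination (0.0601) and when its probe sets were averaged (0.197). Its further probe set gave -0.19. OAS3 stayed at 4.15 to 4.40 on 13 arrays, with 3.50 on low dexamethasone array 2, and changed in no comparison.

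Of the dynamin-like GTPases, GBP1, a guanylate-binding protein that coats intracellular pathogens and a classic interferon gamma target, rose with salmeterol. Its levels were 7.69 and 7.43 in untreated cells, 8.84 and 8.69 with salmeterol, 8.01 and 8.12 with CGS-21680, 6.66 and 6.98 with low dexamethasone, 6.87 and 7.32 with high dexamethasone, 8.72 and 8.43 with salmeterol and low dexamethasone, and 7.78 and 8.35 with CGS-21680 and low dexamethasone. The 8 arrays with an agonist lay above the 6 without. Salmeterol raised GBP1 by 1.21 ± 0.22 (2.31-fold, adjusted p = 0.0135) alone and by 1.75 ± 0.22 (3.37-fold, 0.000815) beside low dexamethasone, and CGS-21680 raised it by 1.25 ± 0.22 (2.37-fold, 0.0187) beside low dexamethasone. The salmeterol combination was 1.01 ± 0.22 above untreated cells (0.00886).

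CGS-21680 alone gave 0.50 ± 0.22 (95% interval 0.01 to 1.00) and low dexamethasone alone -0.74 ± 0.22 for GBP1, and neither passed (adjusted p = 0.585 and 0.102). The interactions with dexamethasone were 0.54 for salmeterol and 0.74 for CGS-21680, and neither passed (0.572 and 0.747). The call with salmeterol alone was lost without any of its 4 arrays (0.0509 to 0.0897) and with no filter (0.0507). The call for CGS-21680 beside low dexamethasone was lost without low dexamethasone array 1 (0.121) or 2 (0.0567), without array 2 of the combination (0.0936) and with no filter (0.0671). The salmeterol combination against untreated cells was not called without untreated array 2 (0.0646) or array 1 of the combination (0.0674). The further 2 probe sets of GBP1 gave 1.55 and 1.35 with salmeterol. MX1, the antiviral GTPase of influenza resistance, stayed between 4.57 and 6.06, with the same value of 5.24 on 7 arrays, and changed in no comparison.

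Of the ubiquitin-like and ADP-ribosylation genes, PARP14 entered the test through the CGS-21680 arrays alone, the only ones above 4, so the filter favoured a difference there and nothing is read from its calls. Its levels were 3.88 and 3.83 in untreated cells, 3.57 and 3.58 with salmeterol, 4.42 and 4.13 with CGS-21680, and 3.60 and 3.55 with CGS-21680 and low dexamethasone. The remaining arrays lay between 3.48 and 3.77. The fit gave 0.70 ± 0.12 for CGS-21680 against salmeterol and -0.70 ± 0.12 for adding low dexamethasone to CGS-21680, and called both. Counted against the level of 4, the CGS-21680 mean was at least 1.21-fold higher, an excess that the filter also favoured. CGS-21680 against salmeterol had no call among the other 31 members (0.495% of all genes), and the PARP14 call there was lost in 12 of the 14 fits without 1 array, with quantile normalization and with no filter. ISG15, the ubiquitin-like modifier, had its lowest value at 5.82, DTX3L, a ubiquitin ligase, stayed between 5.21 and 5.41, and neither changed.

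Of the remaining effectors, ISG20, an exonuclease that degrades single-stranded RNA, showed the largest response of the tested members against untreated cells, and it followed dexamethasone. Its levels were 10.72 and 10.89 in untreated cells, 11.35 and 11.57 with salmeterol, 11.14 and 11.15 with CGS-21680, 12.76 and 12.77 with low dexamethasone, 12.71 and 12.56 with high dexamethasone, 13.08 and 13.24 with salmeterol and low dexamethasone, and 12.9985 and 12.95 with CGS-21680 and low dexamethasone. The 8 arrays with dexamethasone lay above the 6 without. ISG20 rose by 1.96 ± 0.11 with low dexamethasone (3.89-fold, adjusted p = 1.85e-05), by 1.83 ± 0.11 with high dexamethasone (3.56-fold), by 2.36 ± 0.11 with salmeterol and low dexamethasone (5.13-fold) and by 2.17 ± 0.11 with CGS-21680 and low dexamethasone (4.50-fold). Added to an agonist, low dexamethasone raised it by 1.70 (salmeterol) and 1.83 (CGS-21680). Its further probe set gave 1.91 with low dexamethasone and 2.36 with salmeterol and low dexamethasone.

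Salmeterol alone also raised ISG20, by 0.66 ± 0.11 (1.58-fold, adjusted p = 0.00946), a call lost without untreated array 1 (0.0724) or salmeterol array 2 (0.0582). CGS-21680 alone gave 0.34 ± 0.11 (0.362). Salmeterol added to low dexamethasone raised it by 0.40 ± 0.11 (0.0404), lost in 8 of the 14 fits, those without an array of low dexamethasone, the salmeterol combination or either CGS-21680 group (0.0541 to 0.195), with quantile normalization (0.0704) and with no filter (0.0619). The interaction of salmeterol with dexamethasone was -0.26 ± 0.16 and did not pass (0.61). IFI35, a leucine-zipper protein induced by interferon, fell by 0.85 ± 0.17 with salmeterol and low dexamethasone (8.46 and 8.55 in untreated cells against 7.56 and 7.77, adjusted p = 0.00553) and by 0.66 ± 0.17 against low dexamethasone (8.46 and 8.19, 0.0281). The second call was lost without low dexamethasone array 1 (0.166), without either array of the combination (0.163 and 0.0548) and with no filter (0.0832). IFI16, a DNA sensor, BST2, which tethers virions, and SAMHD1, which hydrolyses deoxynucleotides, stayed within 10.24 to 10.74, 10.28 to 10.72 and 9.68 to 10.18 and changed in no comparison. Nor did SP100, SP110, PML and TRIM21 of the nuclear bodies and TRIM proteins, by the probe sets that stand for them. Averaged over its probe sets, SP110 fell by 0.45 with salmeterol and low dexamethasone against untreated cells (limma, adjusted p = 0.0461) and by 0.51 against low dexamethasone (0.0429).

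Of the antigen presentation genes, TAP1, a subunit of the peptide transporter that loads class I molecules, rose with dexamethasone. Its levels were 8.40 and 8.34 in untreated cells, 7.80 and 8.14 with salmeterol, 8.17 and 8.29 with CGS-21680, 9.41 and 9.46 with low dexamethasone, 9.69 and 9.91 with high dexamethasone, 9.24 and 9.32 with salmeterol and low dexamethasone, and 9.46 and 9.71 with CGS-21680 and low dexamethasone. The 8 arrays with dexamethasone lay above the 6 without. TAP1 rose by 1.06 ± 0.14 with low dexamethasone (2.09-fold, adjusted p = 0.00257), by 1.43 ± 0.14 with high dexamethasone (2.69-fold, 0.000332), by 0.91 ± 0.14 with salmeterol and low dexamethasone (1.87-fold, 0.00122) and by 1.22 ± 0.14 with CGS-21680 and low dexamethasone (2.32-fold, 0.000455). Added to an agonist, low dexamethasone raised it by 1.31 (salmeterol) and 1.36 (CGS-21680). TAP2, TAPBP and B2M, which also serve class I loading, changed in none of the comparisons by the probe sets that stand for them. TAPBP stayed between 11.67 and 12.20.

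**Figure D3:**
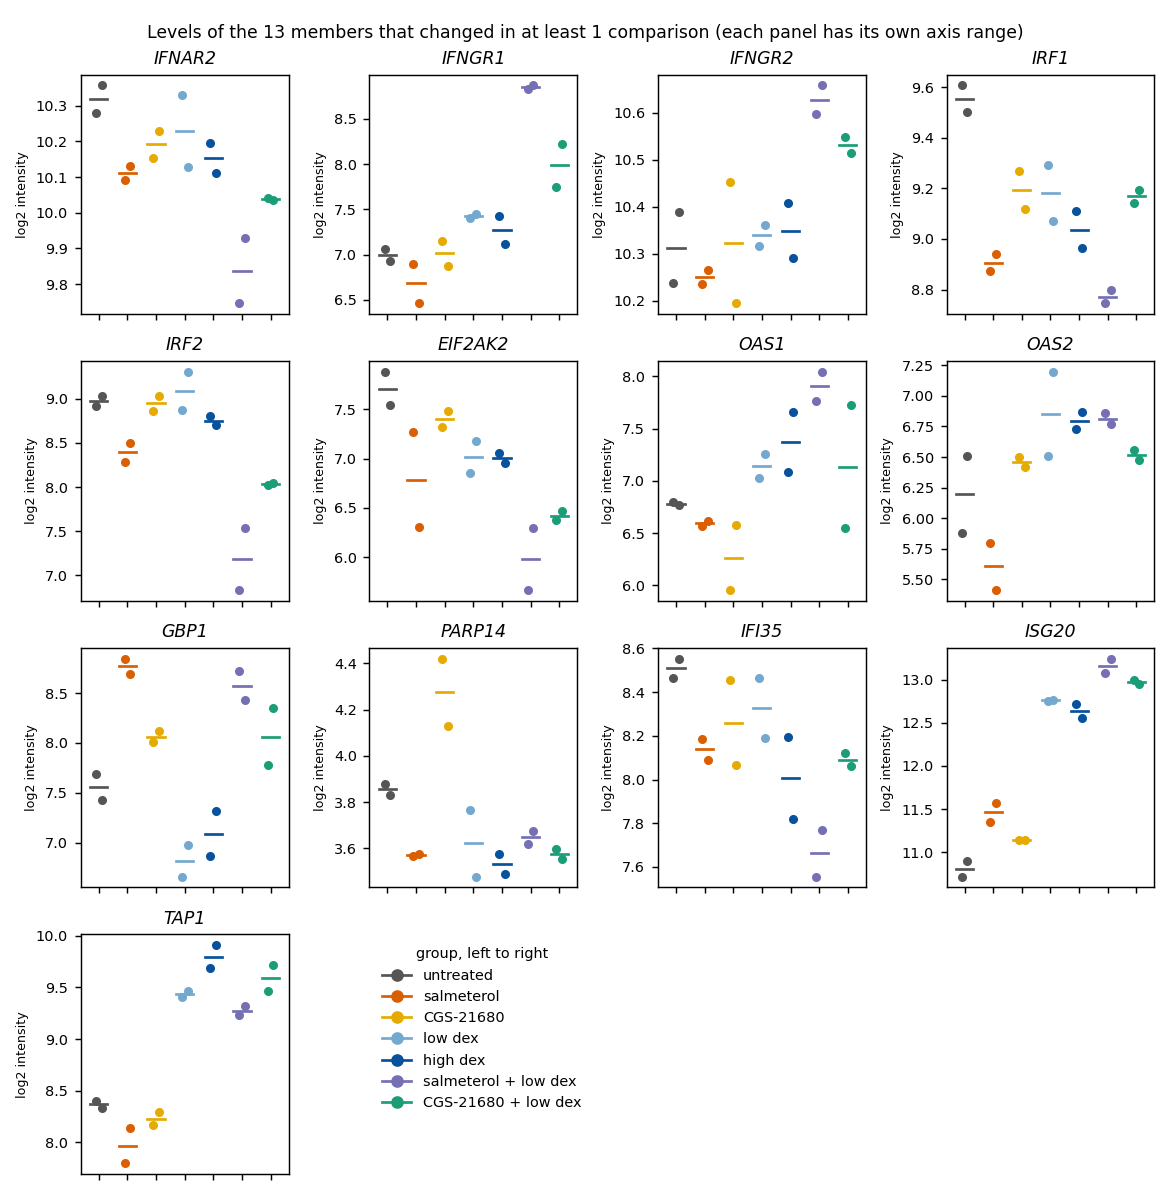
Log2 level of each of the 13 members that changed in at least 1 comparison, by treatment group; each point is 1 array and each bar the mean of 2 arrays. ISG20 and TAP1 step up in all 4 groups with dexamethasone, IFNGR1 rises and IRF2 falls in the combinations, and GBP1 is higher in the groups with an agonist.

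**Figure D4:**
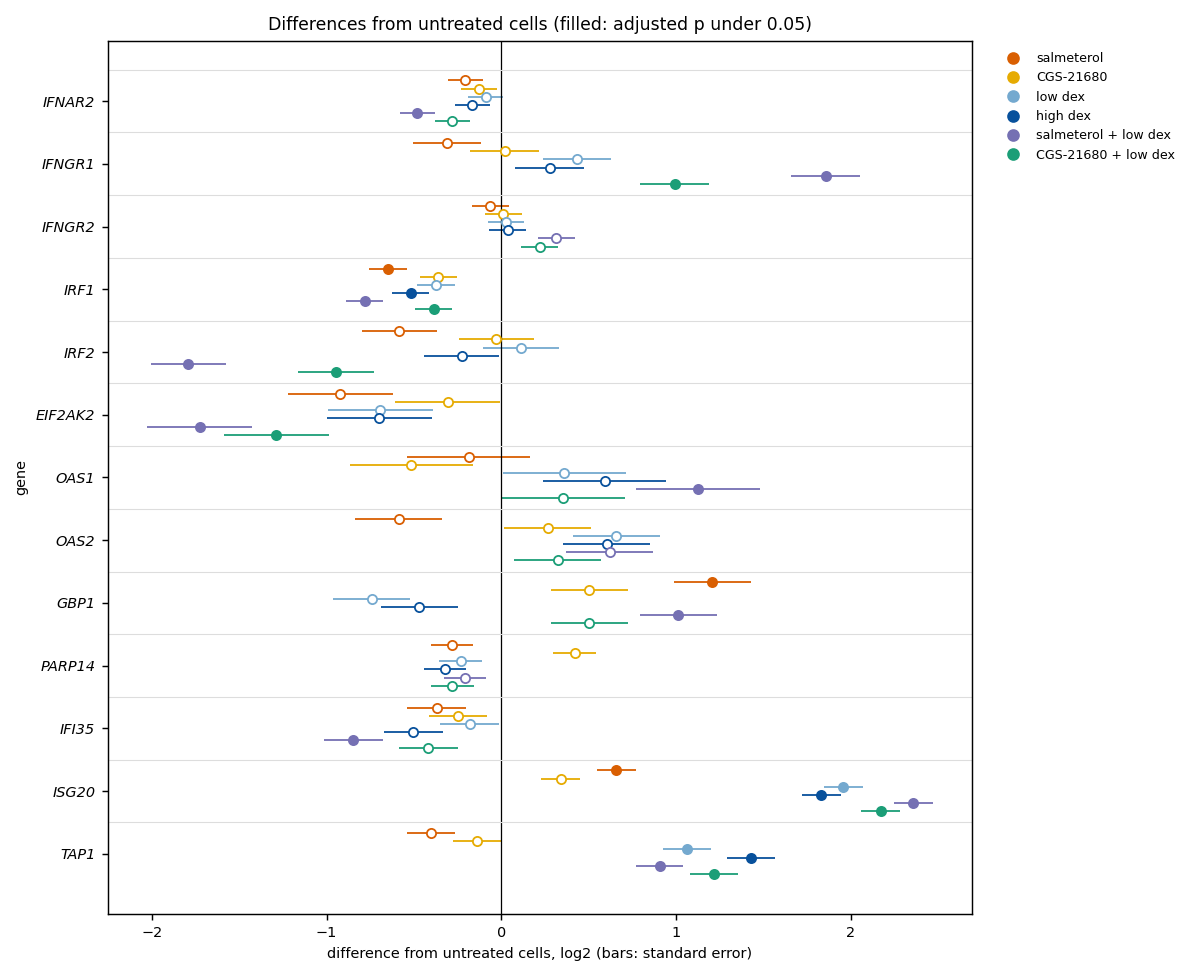
Difference of each treatment from untreated cells on the log2 scale for the 13 members, with standard errors of the limma model; filled points passed an adjusted p of 0.05. The filled points reach from -1.79 (IRF2, salmeterol and low dexamethasone) to 2.36 (ISG20, the same group).

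Among the calls, no member rose in 1 comparison against untreated cells and fell in another. ISG20, TAP1 and IRF1 were the 3 that changed in at least 3 of these 6 comparisons. The 6 comparisons share the untreated arrays, and neither count was taken over all genes, so neither is read as a trait of the members. High and low dexamethasone did not differ in any member (0 of 32, against 0% of all genes; 2 members, or 6.25%, had an unadjusted p under 0.05, against 3.53% of all genes). The difference between the doses was -0.13 for ISG20 (95% interval -0.38 to 0.12) and 0.36 for TAP1 (0.05 to 0.67, adjusted p = 1). The combinations did not differ from each other in any member either (0 of 32, against 1.2% of all genes; 8 members, or 25.0%, had an unadjusted p under 0.05, against 10.1%). CGS-21680 with low dexamethasone minus salmeterol with low dexamethasone was -0.86 ± 0.20 for IFNGR1 (95% interval -1.30 to -0.42, adjusted p = 0.0869) and 0.85 ± 0.22 for IRF2 (0.36 to 1.33, 0.13), so these data neither called these differences nor bounded them near 0. The doses of the agonists, 1 nM and 12.5 nM, were not matched.

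Genes around these members in the same pathway were counted from fixed lists. Of 20 ligand, receptor and signalling genes, 12 were tested, and the 6 interferon genes on the list (IFNA1, IFNB1, IFNG, IFNE, IFNK and IFNL1) all lay below the filter, at no more than 2.74. Salmeterol lowered 3 of the 12 and raised 0 (25.0%, against 5.97% of all genes), and salmeterol with low dexamethasone raised 5 and lowered 2 (58.3%, against 24.6%). PTPN6, the phosphatase SHP-1 that restrains JAK signalling, fell by 1.73 ± 0.19 with salmeterol and rose by 0.83 ± 0.19 with low dexamethasone. STAT3 rose by 1.07 ± 0.16 and PIAS1, a SUMO ligase, fell by 0.40 ± 0.12 with salmeterol and low dexamethasone, and by 0.73 ± 0.12 with salmeterol alone. The other tested genes of the list enter these counts without being named. The 2 genes with no probe set of their own symbol were not analysed here.

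Of 21 genes of nucleic acid sensing, 15 were tested, and salmeterol with low dexamethasone raised 2 and lowered 3 against untreated cells (33.3%, against 24.6% of all genes). AIM2, a sensor of cytosolic DNA, rose by 1.81 ± 0.13 there but fell by 0.73 ± 0.13 with salmeterol alone, and its interaction was 2.02 ± 0.19 (adjusted p = 0.001). ZBP1, a sensor of left-handed nucleic acid, fell by 1.11 ± 0.17, and UNC93B1, which carries endosomal Toll-like receptors, by 0.89 ± 0.12. Of 22 antigen presentation genes outside the members, 19 were tested. Low dexamethasone raised 1 (5.26%, against 4.66% of all genes) and high dexamethasone 2 of the 19 (against 8.58%). ERAP2, a peptidase that trims class I peptides, rose by 1.72 ± 0.18 and 1.98 ± 0.18, and PSMB8, an immunoproteasome subunit, by 0.83 ± 0.14 with high dexamethasone. Salmeterol added to low dexamethasone lowered both, by 0.68 and 0.97. HLA-DRA, a class II chain, rose by 0.53 ± 0.16 with salmeterol and low dexamethasone, 1 of 3 genes raised there with 0 lowered (15.8%, against 24.6%). Of 44 further interferon-stimulated genes, 27 were tested, and salmeterol with low dexamethasone raised 0 and lowered 3 (11.1%, against 24.6%). EPSTI1 fell by 0.46 ± 0.13 and PARP10 by 0.47 ± 0.09 there. CXCL10, a chemokine that each dexamethasone dose alone lowered and each agonist alone raised, had arrays far apart in untreated cells (mean 5.79 ± 1.2, SD, n = 2). Its difference between salmeterol and untreated cells was 4.44 ± 0.43 (limma, adjusted p = 0.000608). Low dexamethasone added to salmeterol gave -4.9638 (7.95e-05), and the interaction of salmeterol with dexamethasone was -3.03 (0.0475). The salmeterol combination was called neither against untreated cells nor against low dexamethasone. CGS-21680 beside low dexamethasone raised CXCL10 by 2.05 (0.0385).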

How the data were processed

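The table deposited by the authors gives an intensity for 54675 probe sets on each of 14 Affymetrix 3' arrays. GCRMA is named in the submitters' processing notes (version not given in the sources used here). Intensities share a floor (37.6% to 40.1% of probe sets per array), so they were taken as linear and normalized, a scale inferred from the values, and changes of weak genes are compressed. Log2 was taken with no pseudocount. Probe sets with 1 symbol in the platform annotation (41097) were used. The 14 arrays entered 1 limma 3.58.1 model of 7 group means in R 4.3.3 (7 residual degrees of freedom, 2.3 added by empirical Bayes), with 15 contrasts, Benjamini-Hochberg adjusted over 9301 genes. The procedure was tested on simulated data. The members and lists were chosen with earlier results of these data known. All members changed in any contrast are named, with all receptors and regulatory factors and the highest and lowest members; of each pathway list, up to 3 changed genes are named by smallest adjusted p in 8 contrasts (each treatment against untreated cells, each agonist added to low dexamethasone). Motifs were searched on both strands of RefSeq promoters. Alternatives are in the closing section. Their number of arrays limits the precision of all values.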

Additional observations from a re-analysis of the deposited data

Results flagged for a closer look

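IFNGR1 responded to salmeterol differently with and without dexamethasone. The change with salmeterol was -0.31 without dexamethasone and 1.42 beside low dexamethasone, a difference of 1.74 ± 0.28 by the interaction term of the limma model (adjusted p = 0.014 over 9301 genes). Both salmeterol arrays lay below both untreated arrays, and both arrays of the combination lay above both low dexamethasone arrays. The call was lost in 7 of the 14 fits without 1 array, as given with the gene. No outlying array could be sought within groups of 2.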

How the results depend on the processing

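Of the 48 calls of single members, 47 passed with a replicate block, 42 with further quantile normalization, 35 with no filter, 45 with the mean of probe sets and 23 in all 14 fits without 1 array. Whether the replicate numbers pair the samples is not given by the labels and was not tested. Deviations of same-numbered arrays correlated at -0.17 to 0.26 (median 0.11) over 21 pairs of groups, 12 of them over 0.1. The block ended 1 call, EIF2AK2 for salmeterol added to low dexamethasone (adjusted p = 0.0601), and raised the count of the salmeterol interaction from 1 to 2 by adding IRF2 (-1.32, 0.0412). It also added IFNAR1 for salmeterol, alone (4 members instead of 3) and added to low dexamethasone, and gave 12 members instead of 9 by the F test, as did the mean of probe sets. Quantile normalization also gave 2 for the salmeterol interaction, and gave 5 instead of 8 for salmeterol added to low dexamethasone and 0 instead of 1 for CGS-21680 against salmeterol. With no filter these were 5 and 0, CGS-21680 added to low dexamethasone gave 1 instead of 2, and the combinations differed in 1 member instead of 0. The mean of probe sets gave 4 members instead of 2 for low dexamethasone. Fits without 1 array gave 7 to 10 members by the F test (9 reported), 0 to 3 for salmeterol (3), 2 to 3 for low dexamethasone (2), 2 to 4 for high dexamethasone (3), 7 to 11 for the salmeterol combination (10) and 2 to 6 for the CGS-21680 combination (6) against untreated cells, 3 to 8 for salmeterol (8) and 0 to 2 for CGS-21680 (2) added to low dexamethasone, 4 to 8 for low dexamethasone added to salmeterol (7) and 3 to 6 added to CGS-21680 (5), 0 to 1 for CGS-21680 against salmeterol (1), 0 to 1 for the combinations against each other (0) and 0 to 1 for the salmeterol interaction (1). The count was lowest for salmeterol without untreated array 1, for the salmeterol combination and its 2 further comparisons without its array 1, and for the CGS-21680 combination against untreated cells without its array 2. A group of which 1 array is left out is assumed to vary like the others. The cause of the changed counts was not tested. Signal near the floor limits the 21 members below the filter.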

Other observations

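Probe sets of 1 gene did not always move together, and the values here were chosen after they had been seen. TAP2, the partner of TAP1 in the peptide transporter, was represented by a probe set that had the same value of 7.43 on 6 arrays and differed from untreated cells by -0.08 with salmeterol and low dexamethasone. A further TAP2 probe set was at 7.32 and 6.96 in untreated cells, 6.34 and 6.09 with salmeterol, 6.76 and 6.41 with low dexamethasone, 4.64 and 4.43 with salmeterol and low dexamethasone, and 5.39 and 5.93 with CGS-21680 and low dexamethasone. By that probe set the combinations differed from untreated cells by -2.60 and -1.48. The remaining TAP2 probe set past the filter differed by -0.04 and -0.02. Averaged over its probe sets, TAP2 fell by 0.91 with salmeterol and low dexamethasone (limma, adjusted p = 9.25e-05), while TAP1 rose in the same cells. Which TAP2 transcripts these probe sets measure was not tested.

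IFNAR2 also differed by probe set. Besides the one described, a probe set at 8.48 and 8.28 in untreated cells was at 7.51 and 7.77 with low dexamethasone and 7.66 and 7.83 with high dexamethasone, differences of -0.74 and -0.63. The CGS-21680 combination was at 7.32 and 7.37 there and the salmeterol combination at 7.08 and 7.44. Averaged over its probe sets, IFNAR2 fell by 0.41 with low dexamethasone (adjusted p = 0.0405) and by 0.53 with high dexamethasone (0.00839), comparisons in which its representative probe set gave -0.09 and -0.17. By that average it also fell with CGS-21680 and low dexamethasone, by 0.64 against untreated cells (limma, adjusted p = 0.00161) and by 0.49 against CGS-21680 (0.00748). Low dexamethasone added to salmeterol lowered it by 0.40 (0.0164).

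OASL, the OAS-like member below the filter, was called with no filter for CGS-21680 with low dexamethasone against untreated cells (0.26, adjusted p = 0.00587), at levels of 2.61 and 2.49 against 2.29 on both untreated arrays. DTX3L had the same value of 5.37 on 8 arrays and TRIM21 the same value of 6.87 on 4.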
